A study of Mus musculus with 3 samples.

Results

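Transcript levels of 10 genes that encode the non-laminin backbone of the basement membrane were read from RNA-seq of wounded primary mouse fibroblasts. They were chosen by gene name from a table of 43472 rows, and comprise the 6 collagen IV chains Col4a1 to Col4a6, the collagen XVIII gene Col18a1, the nidogens Nid1 and Nid2, and the perlecan gene Hspg2. The fibroblasts came from tail tips of C57BL/6 mice, grew as a monolayer that was scratched with a pipette tip, and received for 5 h the soluble fraction of a skin micrograft (MG) together with PD0325901 (1 μM), which blocks the kinase MEK upstream of ERK. All 3 libraries analysed here are labelled as replicates of this MG + PD0325901 condition, and the sources do not say whether they came from separate mice. Untreated and MG-only cells were not analysed here, so every comparison below is between genes or between replicate libraries, and none is between conditions.

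A basement membrane is a thin sheet of matrix on which epithelia, vessels and muscle cells rest. Collagen IV chains fold into trimers that join end to end into a network, with alpha1-alpha1-alpha2 the common form, alpha3-alpha4-alpha5 best known from the kidney glomerulus and alpha5-alpha5-alpha6 from skin and smooth muscle. Nidogens bridge this network to the laminin network, perlecan is a large proteoglycan whose heparan sulfate chains hold growth factors, and collagen XVIII carries heparan sulfate and releases the fragment endostatin. Fibroblasts of the dermis secrete several of these proteins into the skin basement membrane from below.

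Values are given as normalized counts, the reads of a gene divided by the size factor of its library. Whole reads could be recovered from them and summed to between 17244505 and 27037783 per library. Most listed markers of other cell types were low: the summed endothelial markers ranged from 56.9 to 248 normalized counts over the libraries, with Tie1 and Emcn at 0, and the keratinocyte markers from 43.0 to 89.4, with Krt15 and Krt1 at 0. Schwann markers summed to between 62.7 and 166, adipocyte markers to between 458 and 2199 and leukocyte markers to between 76.8 and 670. Fibroblast markers summed to between 454475 and 705838 with 8 of 8 detected. Mural markers, which smooth muscle cells, pericytes and myofibroblasts share, summed to between 161929 and 221838, most of it Acta2. In bulk RNA, fewer cells of a type and less RNA per cell cannot be told apart.

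The collagen IV genes lie as 3 head-to-head pairs, in which both genes start close together on opposite strands. On chromosome 8, Col4a1 (11198423 to 11312826, minus strand, GRCm38) and Col4a2 (11312805 to 11449287, plus strand) overlap at their starts by 22 bases. On chromosome 1, Col4a4 (82448423 to 82586849, minus) and Col4a3 (82586921 to 82722059, plus) start 72 bases apart. On the X chromosome, Col4a6 (141165403 to 141474076, minus) and Col4a5 (141475385 to 141689234, plus) start 1309 bases apart. The other members lie on chromosomes of their own, Nid1 on 13 (13437551 to 13512269, plus), Nid2 on 14 (19751265 to 19811787, plus), Hspg2 on 4 (137468769 to 137570630, plus) and Col18a1 on 10 (77052178 to 77166548, minus). Start sites with windows of 300 bases were given by RefSeq (GRCm38.p6) for 8 of the 10 genes, 9 windows in all, as Col18a1 has 2. To show how unlike the starts of these genes are, the bases upstream of the annotated exons are printed for the X-linked pair, for Nid1 and for Hspg2, 5′ to 3′ on the strand of the gene, followed by the 71 bases between Col4a4 and Col4a3. Capitals mark the CCAAT box, the GC box GGGCGG and the ETS core CCGGAA, on either strand, and the lines cover chrX:141475169-141475384 (plus strand), chrX:141474077-141474326 (minus), chr13:13437352-13437550 (plus), chr4:137468553-137468768 (plus) and chr1:82586850-82586920 (minus).
Col4a5: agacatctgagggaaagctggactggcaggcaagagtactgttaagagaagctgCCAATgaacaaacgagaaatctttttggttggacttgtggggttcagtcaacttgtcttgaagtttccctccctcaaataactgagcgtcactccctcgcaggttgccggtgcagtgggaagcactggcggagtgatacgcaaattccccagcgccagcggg
Col4a6: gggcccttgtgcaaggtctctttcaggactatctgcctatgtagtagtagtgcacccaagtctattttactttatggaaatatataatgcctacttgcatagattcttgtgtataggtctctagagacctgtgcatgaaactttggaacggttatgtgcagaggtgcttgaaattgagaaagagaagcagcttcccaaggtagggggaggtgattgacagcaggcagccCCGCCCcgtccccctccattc
Nid1: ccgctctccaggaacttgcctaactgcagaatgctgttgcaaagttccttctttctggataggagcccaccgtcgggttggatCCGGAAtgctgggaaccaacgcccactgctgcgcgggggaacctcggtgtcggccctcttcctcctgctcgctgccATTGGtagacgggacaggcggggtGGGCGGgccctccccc
Hspg2: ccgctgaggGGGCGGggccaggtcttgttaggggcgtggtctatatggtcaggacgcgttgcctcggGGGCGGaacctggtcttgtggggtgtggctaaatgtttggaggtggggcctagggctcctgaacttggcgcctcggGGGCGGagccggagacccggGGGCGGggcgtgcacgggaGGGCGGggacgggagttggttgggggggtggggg
Col4a4: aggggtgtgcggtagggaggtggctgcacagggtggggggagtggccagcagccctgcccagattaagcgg
The Hspg2 stretch held 5 GC boxes (GGGCGG, either strand), whereas the Col4a6 stretch held 1 and the Col4a5 stretch none. Over the full windows, 7 of the 9 had a GC box against 35.7% of all 32851 promoter windows, and 5 had CCAAT against 37.4%. The Col4a1 and Col4a2 windows overlap and both had each of these motifs, so the 9 windows are not separate units. The AP-1 element TGANTCA occurred in none of the 9 windows and in 7.81% of all windows, and TATAAA in none and in 13.6%. CCGGAA, a core ETS element, was present for Nid1 only among the 9, against 14.9% of all windows. GC content of the 9 windows ranged from 48.3% for Col4a6 to 74.0% for Col4a1. Only the Col4a6 window lay below the median of 52.7% over all windows, and the Col4a5 window equalled it. These letters describe the windows and say nothing about which factors bind there.

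Col4a1 and Col4a2, the chains of the common trimer, had the highest mean levels of the members. In replicates 1, 2 and 3 the normalized count of Col4a1 was 14977, 41088 and 31454 (mean 29173 ± 13204, SD, n = 3). That of Col4a2 was 11085, 31625 and 23837 (mean 22182 ± 10369). Both were lowest in replicate 1 by more than 2-fold and highest in replicate 2, which stood 2.74-fold above replicate 1 for Col4a1 and 2.85-fold for Col4a2. Counting error reached at most 0.761% and 0.885% of these values.

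While the level of the pair moved by more than 2.7-fold, its ratio hardly did. There were 1.35, 1.30 and 1.32 Col4a1 counts for each Col4a2 count in replicates 1, 2 and 3, and per kb of exonic length the ratio was 1.17 ± 0.023 (SD, n = 3). The ratio per kb rested on the lengths chosen and became 1.29 with the longest protein-coding transcripts and 1.35 with the coding sequences. The highest ratio was 1.04-fold above the lowest, against a counting error of at most 1.17% of the ratio in a library. As a yardstick, 439 head-to-head pairs of protein-coding genes in the table started within 2000 bases of each other (or overlapped by up to 100), with a mean of at least 100 normalized counts for both genes. The SD over libraries of the log2 ratio was 0.03 for Col4a1 and Col4a2 and had a median of 0.31 over these pairs, of which 4 had a smaller SD. The 439 pairs were not matched to Col4a1 and Col4a2 for level, and fewer reads bring a larger counting error. How far counting error sets the SD of these pairs was not tested. Among 9989 other genes with a mean of at least 100, Col4a2 ranked 3 by likeness to Col4a1, measured as the largest difference in centred log2 value over the 3 libraries (0.03). Dvl3 and Vps13c stood before it, with 181, 493 and 390 and with 123, 349 and 269 normalized counts. For Col4a2 the nearest were Vps13c, Col4a1 and Dph1.

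**Figure D1:**
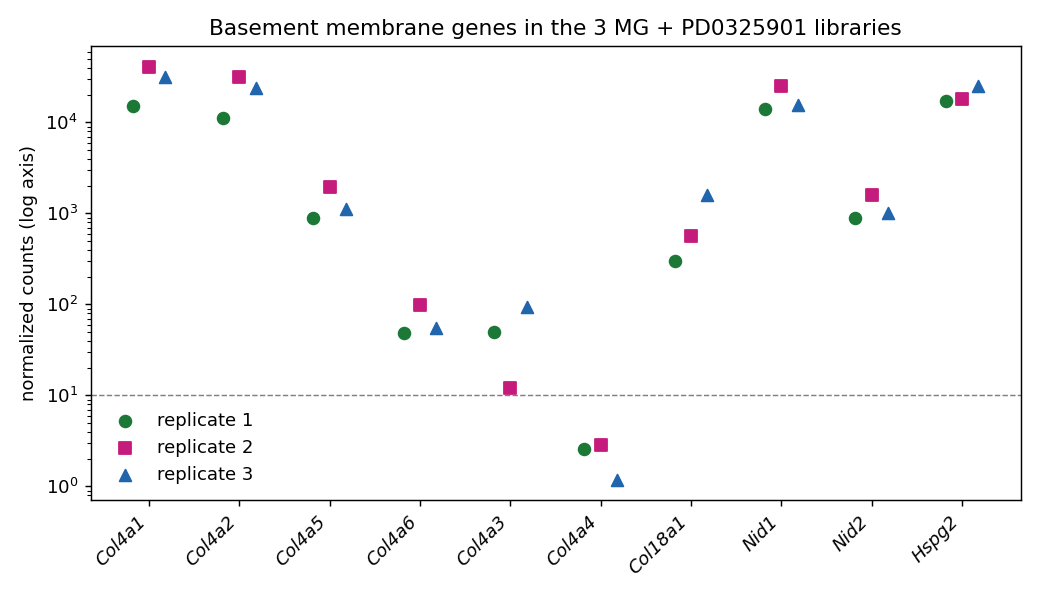
Normalized counts (log axis) of the 10 genes in the 3 MG + PD0325901 libraries, 1 point per library; the dashed line is the detection minimum of 10 normalized counts. Col4a1, Col4a2, Nid1 and Hspg2 lie at or above 11085 in every library, and Col4a4 lies below the line in all 3.

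Col4a5 and Col4a6, the X-linked pair, followed another course at far lower levels. In replicates 1, 2 and 3 the normalized count of Col4a5 was 900, 1951 and 1120 (mean 1324 ± 554, SD, n = 3). That of Col4a6 was 48.6, 98.6 and 55.7 (mean 67.7 ± 27.1). Replicate 2 was highest for both, and replicates 1 and 3 lay close together, whereas for Col4a1 and Col4a2 replicate 3 stood nearer to replicate 2. Col4a5 outnumbered Col4a6 by 18.5, 19.8 and 20.1 times in replicates 1, 2 and 3. This 1.09-fold range of the ratio is smaller than the counting error of up to 14.9% that the few Col4a6 reads bring. The ratio of Col4a1 to Col4a5 was less constant, with 16.6, 21.1 and 28.1 in replicates 1, 2 and 3. By likeness over the libraries, Cic was nearest to Col4a5. Col4a6 was not ranked because its mean was under 100.

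Col4a3 and Col4a4, which pair with alpha5 in the kidney trimer, were at the edge of detection. Col4a3 had 50.4, 12.0 and 93.6 normalized counts in replicates 1, 2 and 3, from 58, 17 and 79 reads. Replicate 2, the highest library for the other detected collagen IV genes, was the lowest here, 4.20-fold below replicate 1 and 7.82-fold below replicate 3. The mean was 52.0 ± 40.9 (SD, n = 3), or 31.2 without replicate 3. Of its exonic bases, 563 overlap C430014B12Rik on the opposite strand, which had 31.3, 14.8 and 16.6 normalized counts. Col4a4 rested on 3, 4 and 1 reads, at or near the 3 reads that a count of 0 allows, so no fold is given. Among the 6 collagen IV genes, Col4a1 and Col4a2 took 52.4% and 44.6% of the counts per kb on average, Col4a5 took 2.78%, and Col4a6, Col4a3 and Col4a4 took 0.121%, 0.087% and 0.0034%. The Col4a5 share was 3.50%, 2.74% and 2.08% in replicates 1, 2 and 3.

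Nid1 and Nid2, the linkers between the collagen IV and laminin networks, lie on different chromosomes and kept the most constant ratio of all member pairs. In replicates 1, 2 and 3 the normalized count of Nid1 was 14211, 25226 and 15540 (mean 18326 ± 6012, SD, n = 3). That of Nid2 was 902, 1589 and 1004 (mean 1165 ± 371). Replicate 2 was highest for both, by 1.78-fold and 1.76-fold over replicate 1, and replicates 1 and 3 differed by 1.09-fold and 1.11-fold. There were 15.8, 15.9 and 15.5 Nid1 counts for each Nid2 count. This 1.03-fold range of the ratio is smaller than its counting error of up to 3.55%. The rank of the Nid1 and Nid2 ratio before that of Col4a1 and Col4a2 is therefore not settled. Nid2 shares 437 exonic bases with Rtraf on the opposite strand, which had 2450, 1718 and 1864 normalized counts and was lowest in replicate 2. According to the paper, the libraries were made with a stranded mRNA kit, but whether reads were counted by strand is not given in the sources used here. Some reads of these overlapping genes could have been left out or assigned to the other gene. Igf2bp2, Elf4 and Gsdmd were nearest to Nid1 in course over the libraries and Nid2 ranked 12. For Nid2 the nearest were Eif4g2, Tmem131 and Asxl2, with Nid1 at rank 7.

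Hspg2, which encodes perlecan, was the steadiest member and Col18a1 was among the least steady. In replicates 1, 2 and 3 the normalized count of Hspg2 was 17317, 17901 and 24898 (mean 20039 ± 4218, SD, n = 3), with replicate 3 1.44-fold above replicate 1. Replicates 1 and 2, which differed most for Col4a1 and Nid1, differed by only 1.03-fold. That small gap still exceeded counting error (adjusted p = 0.000875, two-sided exact binomial test between these libraries with Benjamini-Hochberg adjustment over 14768 genes). Col18a1 stood at 299, 569 and 1597 normalized counts (mean 822 ± 685). Replicate 3 was 5.34-fold above replicate 1 and 2.80-fold above replicate 2, and without it the mean was 434. Col18a1 has 2 annotated start sites, and reads counted per gene do not tell the long from the short form. Nrp2, Ric8 and Pold4 were nearest to Hspg2. Chrdl1, Cspg4 and Inhba were nearest to Col18a1, but at distances of 0.32 to 0.41 on the log2 scale, while for Hspg2 the nearest lay within 0.01.

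**Figure D2:**
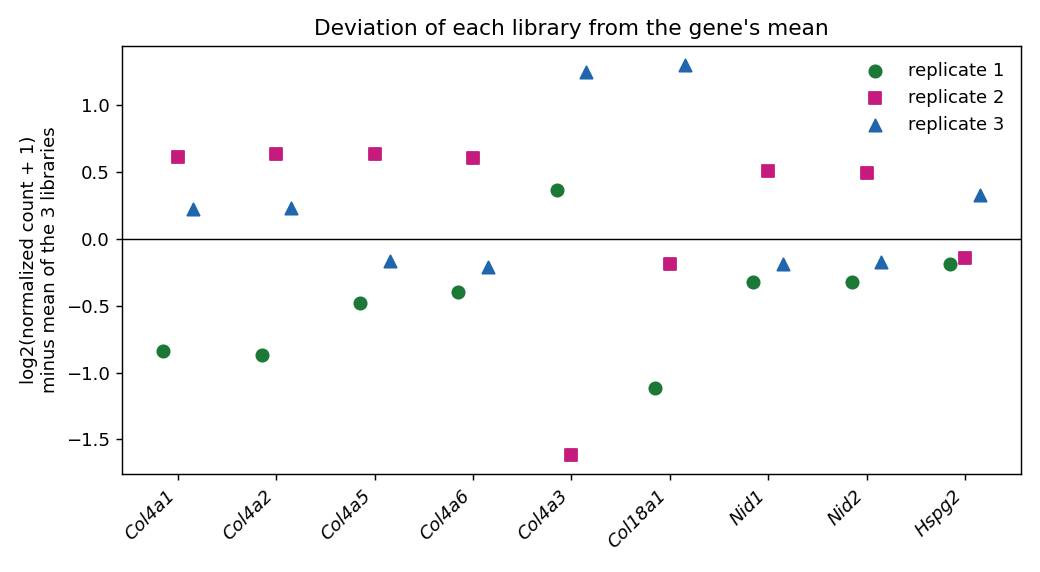
Deviation of each library from the gene's own mean, as log2(normalized count + 1) minus the mean of the 3 libraries, for the 9 detected genes. Replicate 2 is the highest point for 6 genes, replicate 3 for Col4a3, Col18a1 and Hspg2, and replicate 1 is the lowest for all except Col4a3.

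The spread of the members was set beside that of all genes in the table. With a minimum of 10 normalized counts in every library, 9 of the 10 were detected, against 60.1% of genes with reads. The median SD of log2(normalized count + 1) over the 9 was 0.57, and 0.30 over all 12202 detected genes. The highest library was more than 2-fold above the lowest (with 1 added to both) for 6 of the 9, against 26.5% of all 13152 genes with a mean of at least 10. These 6 were the detected collagen IV genes and Col18a1, while Nid1, Nid2 and Hspg2 stayed below 2-fold. Without replicate 2 the count fell to 3 of 9 (Col4a1, Col4a2 and Col18a1), with a background of 9.29%, and the median SD to 0.37. Without replicate 1 the count was 2 of 9 (Col4a3 and Col18a1), with a background of 16.2%, and without replicate 3 it was 5 of 9, with 18.8%.

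Replicate 2 was the highest library for 6 of the 9 genes, a position it held for 40.3% of all genes with a mean of at least 10. Replicate 3 was the highest for the other 3, against 27.8%. Replicate 1 was the lowest for 8 of the 9, against 33.9%, and the highest for none, against 31.9%. This was shared by related genes with a mean of at least 10. Replicate 1 was also the lowest for 8 of 11 interstitial collagens and 8 of 13 receptor genes, but for 7 of 22 genes of collagen folding and crosslinking. Replicate 2 was the lowest for Col4a3 alone, against 37.5%, and replicate 3 for none, against 28.6%. Replicate 2 stood more than 1.5-fold above both others for Col4a5, Col4a6, Nid1 and Nid2 (4 of 9, background 11.9%) and below both for Col4a3 (1 of 9, 11.3%). Replicate 1 stood more than 1.5-fold below both others for Col4a1, Col4a2 and Col18a1 (3 of 9, 5.55%) and above both for none (6.59%), and replicate 3 above both for Col18a1 and Col4a3 (2 of 9, 3.38%) and below both for none (5.68%). By the exact binomial test on recovered reads, which covers counting error only and compares libraries, 8 of 9 genes were higher in replicate 2 than in replicate 1 (background 35.7%) and Col4a3 was lower (32.7%). When the change also had to exceed 2-fold, Col4a1, Col4a2, Col4a5 and Col4a6 remained higher (background 9.37%) and Col4a3 lower (10.8%). Between replicates 3 and 1, 8 genes were higher in replicate 3 (26.1%) and none lower (25.1%), Nid2 by 1.11-fold at an adjusted p of 0.0448 in the exact binomial test. With library totals in place of size factors, or with all genes that had any read, 7 passed. Col4a6 did not pass, with 55.7 against 48.6 normalized counts and an adjusted p of 0.659 in the exact binomial test. More than 2-fold higher in replicate 3 than in replicate 1 were Col4a1, Col4a2 and Col18a1 (3.46%), and none was lower by that much (5.44%). Against replicate 2, replicate 3 was higher for Col4a3, Col18a1 and Hspg2 (30%) and lower for the other 6 (32%), and the difference exceeded 2-fold for Col4a3 and Col18a1 (6.95%) and for none of the lower ones (9.3%). Together the 10 genes took 0.306%, 0.630% and 0.487% of all normalized counts in replicates 1, 2 and 3. Hspg2 made up 29.0% of that sum in replicate 1 and 14.9% in replicate 2. Its share in replicate 1 was the largest of the members by counts not divided by length, while per kb it ranked 4 there.

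The ratios between members sort the genes by how far they moved together. Over the 36 pairs of the 9 detected genes, the SD of the log2 ratio ran from 0.02 for Nid1 and Nid2 to 2.03 for Col4a3 and Col4a5, with a median of 0.68. Among these 9 genes, Col4a5, Col4a6, Nid1 and Nid2 formed the most constant group, with SDs of 0.02 to 0.15 for all 6 of their pairs. Col4a1 and Col4a2 lay at 0.38 to 0.50 from this group, and Hspg2 at 0.58 to 0.74 from all 6. The group was not close when set beside other genes. Among 9989 other genes ranked by likeness to Col4a5, Nid1 stood at 211 and Nid2 at 202. Col4a5 ranked 499 for Nid1 and 517 for Nid2. Ratios with Col4a6 also rest on few reads, with a counting error of up to 14.9% against Col4a5. The genes share the same 3 libraries, so these SDs describe the libraries and carry no test.

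**Figure D3:**
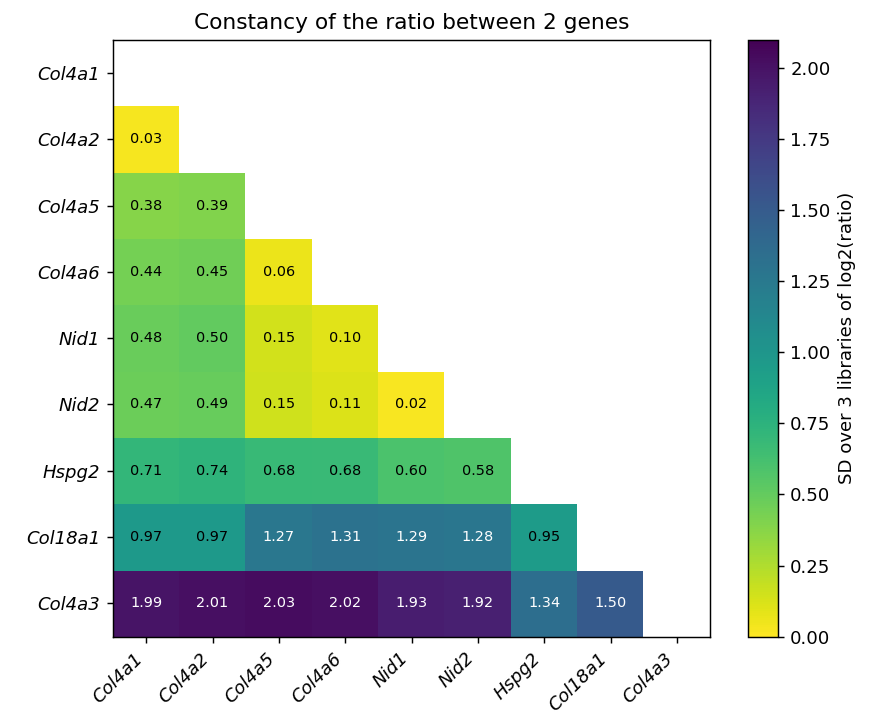
SD over the 3 libraries of the log2 ratio between 2 genes, for the 36 pairs of the 9 detected genes; light cells are ratios that stayed constant. Nid1 with Nid2, Col4a1 with Col4a2 and Col4a5 with Col4a6 have the 3 smallest values, and every pair with Col4a3 has an SD of at least 1.34.

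Levels of different genes can be set side by side only per length, and per kb of exonic length the members spanned more than 4 orders of magnitude. Col4a1 (3908 ± 1769 normalized counts per kb, SD, n = 3), Col4a2 (3351 ± 1567) and Nid1 (2639 ± 866) led. Col4a1 was above Col4a2 in every library, but Nid1 was above both in replicate 1, with 2047 per kb against 2007 and 1675, so Col4a2 and Nid1 were not separated. Hspg2 followed with 1401 ± 295 per kb, below the whole range of Nid1. Its range overlapped that of Col4a2, with 1740 for Hspg2 in replicate 3 against 1675 for Col4a2 in replicate 1. Within every library Hspg2 ranked below Col4a2. Nid2 (225 ± 71.6), Col4a5 (197 ± 82.5) and Col18a1 (117 ± 97.5) had overlapping ranges, and in replicate 3 Col18a1 stood above the other two. Col4a6 (8.49 ± 3.39) and Col4a3 (5.22 ± 4.10) also overlapped, and Col4a4 was last with 0.208 ± 0.084. In mean level per kb, Col4a1 exceeded 98.0% and Hspg2 93.9% of 11620 detected genes with an annotated length, whereas Col4a6 exceeded 5.88%. Without division by length, the longest transcript, Hspg2, moved above Nid1, and Col4a5 above Nid2.

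**Figure D4:**
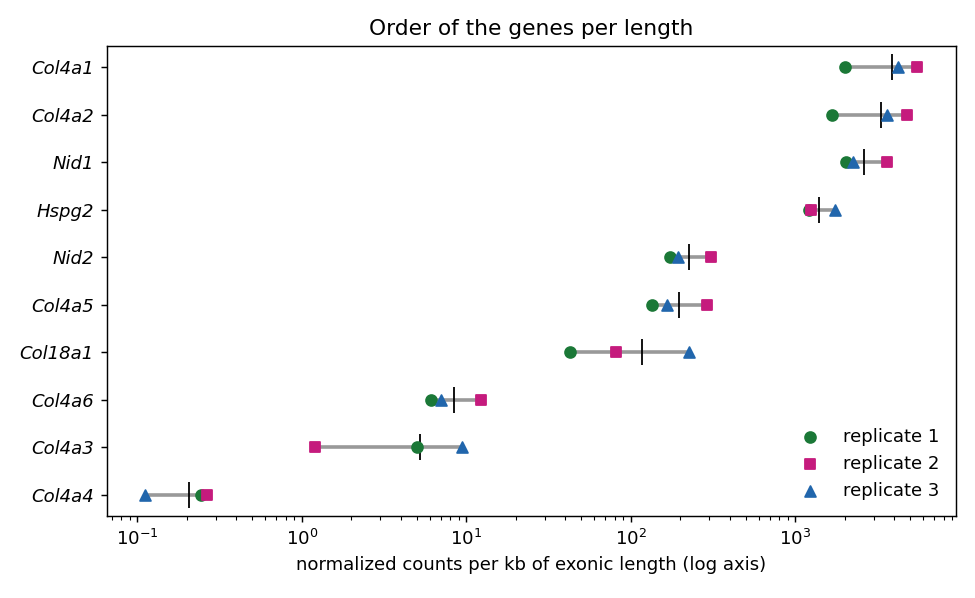
Normalized counts per kb of exonic length (log axis) for the 10 genes, ordered by mean; points are libraries, grey lines their range and black ticks the mean of 3. Among neighbours in this order, gaps free of overlap separate Nid1 from Hspg2, Hspg2 from Nid2, Col18a1 from Col4a6 and Col4a3 from Col4a4. The range of Hspg2 still overlaps that of Col4a2.

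Other genes of the basement membrane were read from a list of laminins and associated proteins. Of 24 genes, 18 had a mean of at least 10, of which 8 were highest in replicate 2, 7 in replicate 3 and 3 in replicate 1, and the range exceeded 2-fold for 9. The shares over all genes with that mean were 40.3%, 27.8%, 31.9% and, for the range, 26.5%. Replicate 1 was the lowest for 8 of the 18, against 33.9%. The median log2 difference between replicate 2 and the others was -0.08, against 0.76 over the 9 members and 0.02 over all genes with that mean. Sparc, a collagen-binding glycoprotein, was the highest with 146437, 131983 and 172249 normalized counts. Fbln2 had 22442, 44052 and 31851 normalized counts, in the library order of Col4a1. Smoc2 went the other way with 14179, 5377 and 13855. Among the laminin chains, Lama2 had 93.8, 617 and 160 and Lamb3 had 157, 35.2 and 697 normalized counts, so replicate 2 was the highest library for the first and the lowest for the second.

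Collagen chains are folded, exported and crosslinked by a shared machinery. All 23 listed genes were in the table, 22 had a mean of at least 10, and the range exceeded 2-fold for 3 of these. The share over all genes with that mean was 26.5%. Replicate 2 gave the lowest value for 13, against 37.5%, and the highest for 6, against 40.3%. Its median log2 difference from the others was -0.24. Serpinh1, the collagen chaperone HSP47, had 39670, 39992 and 42390 normalized counts, and P4hb, a subunit of prolyl 4-hydroxylase, had 40400, 32689 and 47861. Loxl2, a crosslinking enzyme of collagen IV, had 26559, 23770 and 28889. Among those with a mean of at least 100, the largest ranges were those of Loxl1, with 3030, 8468 and 2921, and of the lysyl hydroxylase gene Plod2, with 12377, 5839 and 10952 normalized counts.

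The 11 interstitial collagens listed were chains of collagens I, III, V, VI, XII and XIV, not all of which form fibres themselves. Replicate 3 was the highest library for 8 of 11 genes, against 27.8% of all genes with a mean of at least 10. The range exceeded 2-fold for 2, against 26.5%. As for the members, replicate 1 was the lowest for most (8 of 11, against 33.9%) and the highest for none. Col1a1 had 157553, 154124 and 246175 normalized counts, Col1a2 had 64375, 88384 and 116185, and Col5a2 had 112250, 108384 and 183277. Per kb, Col1a1 averaged 28333 and Col4a1 3908. Col6a3 had 9463, 17675 and 22373 normalized counts. Col14a1 had 20.8, 1520 and 7.11, so nearly all of its signal came from replicate 2. The median log2 difference of replicate 2 from the others was 0.03 over this list.

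**Figure D5:**
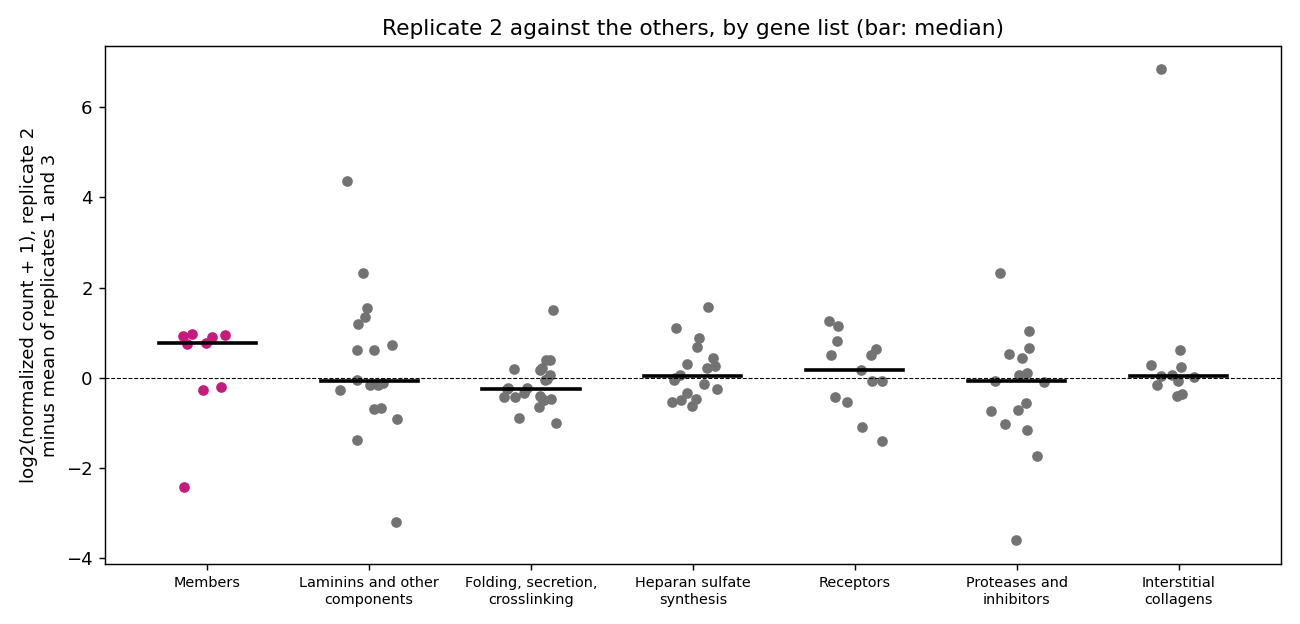
Difference in log2(normalized count + 1) between replicate 2 and the mean of replicates 1 and 3, for the members and the 6 lists of matrix, enzyme and receptor genes (mean of at least 10), without the cell-type markers; points are genes and bars are medians. The members have a median of 0.76 and these 6 lists medians between -0.24 and 0.18.

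Cells bind these proteins through integrins, dystroglycan and discoidin domain receptors. Of 14 such genes, 13 had a mean of at least 10, with 7 highest in replicate 2, 5 in replicate 3 and 6 of more than 2-fold range. The shares over all genes with that mean were 40.3%, 27.8% and 26.5%. Replicate 1 was the lowest for 8 of the 13, against 33.9%. Itgb1, the beta subunit of the laminin- and collagen-binding integrins, had 36265, 37118 and 42075 normalized counts. Ddr2, a collagen receptor kinase, had 3944, 9665 and 4768, and Itgb5 had 5401, 5239 and 10795. Itga3, whose product binds laminin with that of Itgb1, had 1791, 884 and 3109, and Itgb3 had 406, 1366 and 797.

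Markers of mural cells, which make basement membrane in vessels, were highest in replicate 2 for 4 of 8 genes (background 40.3%). The median log2 difference of replicate 2 from the others was 0.39. Des had 212, 1208 and 77.0 normalized counts, Cspg4 had 3546, 5232 and 11476, Acta2 had 152758, 166683 and 205899 and Pdgfrb had 2894, 2942 and 3129. Thy1, of the fibroblast list, had 2031, 15760 and 1652, and Lum had 5073, 289 and 1164. The other fibroblast markers with the highest means were Vim, with 85416, 94183 and 104067, and Fn1, with 136151, 118311 and 232677. Over markers whose mean reached 10, the same median was -0.18 over 8 fibroblast, 2.52 over 2 endothelial, 1.53 over 2 adipocyte, -1.44 over 2 Schwann and over 2 leukocyte markers and -0.36 for 1 keratinocyte marker. The 2 endothelial markers went apart, so their median rests on Tek alone. Tek had 6.95, 185 and 2.37 normalized counts, whereas Egfl7 had 69.5, 53.6 and 49.8. Lpl had 10.4, 432 and 35.6 normalized counts, Fabp4 had 2185, 376 and 422, and Lyz2 had 123, 62.7 and 601. The part of these cell-type markers in the levels of the collagen IV and nidogen genes was not tested.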

How the data were processed

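RNA-seq of 3 MG + PD0325901 libraries was analysed. According to the methods and the submitters' processing notes, reads were checked with FastQC 0.11.5, aligned to mm10 with TopHat2 2.0.13, handled with SAMtools 0.1.19.24 and counted per gene with HTSeq 0.5.3p3 before normalization with DESeq. The gene annotation, the strand setting and the libraries behind the size factors are not given in the sources used here. The deposited signal consists of normalized counts, for which the authors divided the reads of each library by 1 size factor. Another 3 columns could not be assigned to a sample and were not used. In each library 100% of values were whole multiples of 1 read within a tolerance of 0.01, so reads were recovered. They summed to 22540518, 27037783 and 17244505 in replicates 1, 2 and 3. The floor of 3 reads corresponds to 2.61, 2.11 and 3.56 normalized counts. Such limits, like all p-values here, cover counting error only, as the reads carry no molecular identifiers. Of the rows, 2 repeated names were left out.

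Means and SDs were computed from normalized counts, and log2 values after adding 1. Pairs of libraries were compared by exact binomial tests (two-sided) of the recovered reads for 14768, 14314 and 14342 genes that had 10 or more reads over both libraries (replicates 1 and 2, 1 and 3, 2 and 3), with Benjamini-Hochberg adjustment at 0.05. The test was first tested on simulated data. Exonic lengths, positions and head-to-head pairs came from GENCODE M21 (GRCm38), and promoter windows (250 bases before to 50 after the start) from RefSeq. Both strands were searched for each motif. Older symbols were matched through RefSeq synonyms.

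The members and gene lists were chosen with earlier results of these data known. Genes named were the 10 members, the 3 with the highest mean and the 2 with the largest range in each list (mean of at least 100), and the 3 nearest in course to each member with that mean, except for Col4a5, where the others are not reported here. Lists covered laminins and associated proteins, collagen folding and crosslinking, heparan sulfate synthesis, receptors, proteases with inhibitors, interstitial collagens, and markers of fibroblasts, endothelial, mural and Schwann cells, keratinocytes, adipocytes and leukocytes. Rtraf and C430014B12Rik were added because their exons overlap members, and absent markers are also named. Alternatives were other scalings (edgeR 4.0.16 TMM, DESeq2 1.42.0, equal totals), minimums, fold limits, pseudocounts, lengths and each replicate left out. Python 3.11.15, numpy 2.4.6, pandas 2.3.3, scipy 1.17.1 and R 4.3.3 were used.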

Additional observations from a re-analysis of the deposited data

How the results depend on the processing

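No paired analysis was possible because all libraries belong to 1 condition. The count of members with a more than 2-fold range was 2 at a limit of 3-fold, and between 2 and 5 with each replicate left out. The median SD of log2 ranged from 0.37 to 0.71 when single replicates were left out. The ratio of Col4a1 to Col4a2 per kb was 1.29 by longest protein-coding transcripts and 1.35 by coding sequences, which follows from the lengths. Without division by length 6 of the 10 members kept their rank. Requiring a 2-fold difference left 5 members that differed between replicates 2 and 1, 3 members between replicates 3 and 1, and 2 members between replicates 3 and 2, by construction. Under equal totals, TMM and DESeq2 factors, which were chosen for these counts after the data were seen, replicate 2 stayed the highest library for 6 members and replicate 1 the lowest for 8. Without replicate 3 the mean of Col18a1 fell from 822 to 434 normalized counts and that of Col4a3 from 52.0 to 31.2. Members that differed between replicates 3 and 1 numbered 7 instead of 8 with totals in place of size factors and with all genes that had any read. Depth limited Col4a4, with at most 4 reads, Col4a3, with 17 in its lowest library, and Col4a6, with 47.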

Other observations

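Perlecan and collagen XVIII carry heparan sulfate, and a list of genes for enzymes that build and edit these chains was read, which does not cover all such enzymes. All 18 listed genes reached the detection minimum of 10 throughout, against 60.1% of genes with reads. Replicate 3 was the highest library for 13 and replicate 1 the lowest for 10, and replicate 1 was the highest for none, as for the members. Over all genes with a mean of at least 10, these shares were 27.8%, 33.9% and 31.9%. Ext1 and Ext2, the polymerase genes, had 3521, 5129 and 5272 and 2547, 3124 and 3478 normalized counts in replicates 1, 2 and 3. Sulf1, an extracellular 6-O-sulfatase gene, had 3732, 3825 and 5616. Among those with a mean of at least 100, the largest ranges were those of Sulf2, with 1123, 3047 and 1768, and of the sulfotransferase gene Hs6st1, with 705, 1928 and 594 normalized counts, both highest in replicate 2.

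Among 16 genes of matrix proteases and their inhibitors, replicate 3 was the highest library for 10, and 8 had a more than 2-fold range. Over all genes with a mean of at least 10, the shares were 27.8% and 26.5%. The inhibitors led by level: Timp3 had 72294, 40662 and 62534 normalized counts, Timp1 had 62668, 27514 and 60429 and Timp2 had 40031, 34907 and 66138, each lowest in replicate 2. Mmp3 and the collagen IV-degrading gelatinase Mmp9 were also lowest in replicate 2, with 5597 and 23.3 normalized counts. The list as a whole did not share this. Of the 16 genes, 7 were lowest in replicate 2, against 37.5% of all genes with a mean of at least 10. Another 7 were lowest in replicate 1, against 33.9%. The median log2 difference of replicate 2 from the others was -0.08.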
